A study of Mus musculus with 21 samples.

Results

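T cells were sought among single cells of melanoma-bearing and tumor-free mice by their antigen receptor genes. A cell was taken as a T cell when it held a UMI (1 counted mRNA molecule) of at least 2 of the 5 genes Cd3e, Cd3g, Cd3d, Trac and Trbc2, and no UMI of Ncr1, Klrb1c, Cd79a, C1qa, S100a8, Col1a2 or Pecam1. This rule found 583 T cells among 51511 cells of 12 libraries, of which 456 came from unchallenged lung, 123 from lung metastases and 4 from primary tumors. The cells were chosen by the UMIs of these genes, so their levels, and the contrast of T cells with NK and B cells, are given as descriptions without a test.

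T cells recognize peptide antigens through a receptor whose variable chains pair with the CD3 subunits Cd3d, Cd3e and Cd3g. Cd8a and Cd8b1 encode the coreceptor of cytotoxic T cells, which kill with granzymes and perforin, and Cd4 encodes the coreceptor of helper T cells. Foxp3 is the transcription factor of regulatory T cells, which restrain the other T cells and are found in lung tissue and in tumors.

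The mice were mT/mG hosts, in which every cell carries membrane-bound tdTomato since no Cre was used. Primary tumors grew from MT-ret melanoma fragments placed under the skin of young adult hosts of both sexes and were cut out, after which lung metastases developed. Lungs of unchallenged mice served as controls, and their age was not given in the sources used here. Living tdTomato+ cells were sorted, in some libraries after depletion of CD45+ cells, so the tumor microenvironment (TME) libraries were meant to hold host cells rather than melanoma cells. CD45, encoded by Ptprc, is carried by T cells, and the labels do not say which libraries were depleted of it. The libraries named replicate 1-3 hold cells of 2 mice (lung metastasis) and 3 mice (primary tumor), and each other library holds 1 mouse. Replicates 1 to 3 were in run 1, replicate 4 in run 2 and replicates 5 and 6 in run 3.

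The number of T cells differed widely between libraries of the same tissue. In unchallenged lung, T cells numbered 3 of 1326 cells in replicate 1, 240 of 4085 in replicate 4, 41 of 6009 in replicate 5 and 172 of 25966 in replicate 6. Replicate 4 thus stood apart at 5.88% of its cells (95% exact interval 5.17 to 6.64%), against 0.226 to 0.682% in the other 3 libraries. In lung metastases the counts were 21 of 785 cells in replicate 1-3, 98 of 661 in replicate 4, 1 of 5166 in replicate 5 and 3 of 1036 in replicate 6. Replicate 4 was again the richest, at 14.8% (12.2 to 17.8%), and replicate 1-3 followed at 2.68% (1.66 to 4.06%). Primary tumors gave 2 T cells of 668 in replicate 1-3, 2 of 3123 in replicate 4, 0 of 303 in replicate 5 and 0 of 2383 in replicate 6, where a count of 0 allows 3 cells. The share of cells with a Ptprc UMI moved with these counts at the low end. It was 0.66% and 0.0839% in primary tumor replicates 5 and 6 and 2.26% in lung metastasis replicate 5, and 29.5 to 80.4% in the other 9 libraries. Primary tumor replicate 4 had Ptprc in 77.5% of its cells and 2 T cells. The part of the sort in the shares of T cells was not tested.

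**Figure D1:**
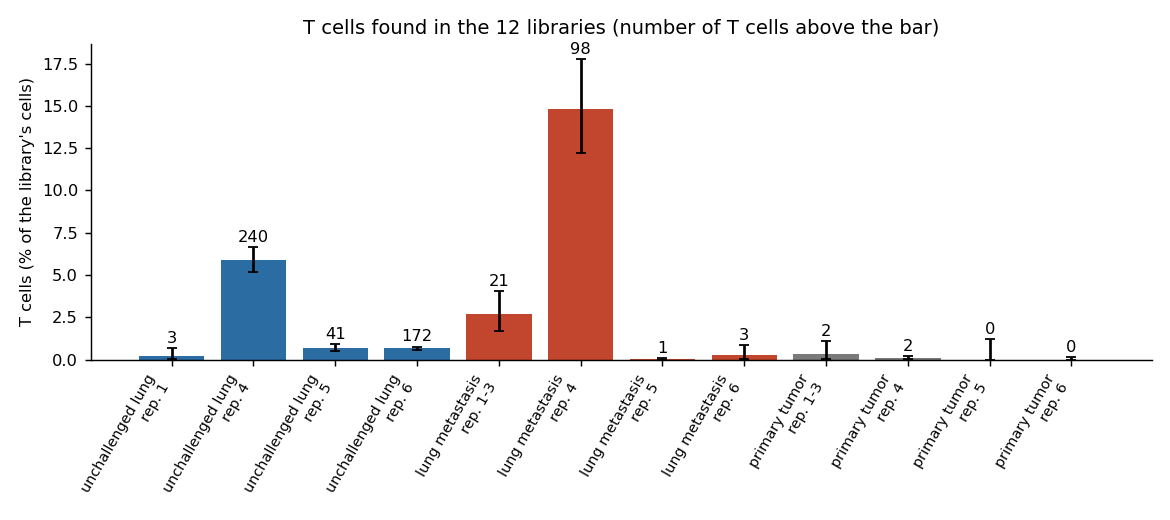
Bars give the T cells as a percentage of all cells in each of the 12 libraries, error bars the 95% exact binomial interval, and the number above each bar the T cells found. Replicate 4 of lung metastasis (98 cells, 14.8%) and of unchallenged lung (240 cells, 5.88%) held most of the T cells, and the 4 primary tumor libraries held 4.

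Measured among lymphocytes, where a depletion of CD45+ cells falls on every class, T cells made up 38.9% and 68.5% in the lung metastasis libraries replicate 1-3 and replicate 4. In unchallenged lung they made up 21.4, 43.2, 29.1 and 33.6% of T, NK and B cells in replicates 1, 4, 5 and 6. The means were 53.7% ± 21.0 (SD, n = 2) and 31.8% ± 9.11 (SD, n = 4), and the libraries of both tissues overlapped. The difference of 21.9 percentage points was not beyond the spread between libraries (two-sided exact permutation test, p = 0.133, adjusted over 4 comparisons 0.533, smallest p possible 0.0667). Runs 1 and 2 each held 1 library of both tissues: the shares were 38.9% in metastasis and 21.4% in unchallenged lung in run 1 (3 T cells among 14 lymphocytes of the latter), and 68.5% and 43.2% in run 2. The within-run differences averaged 21.4 points (exact sign-flip test over 2 runs, p = 0.5, the smallest it allows). The overall difference was 7.05 points without metastasis replicate 4 and 36.7 without replicate 1-3. NK cells held a UMI of Ncr1 or Klrb1c, B cells of Cd79a and of Cd79b, and neither held any of the 5 T cell genes. These shares were not thinned, and the 3 rules ask for unlike numbers of genes, so the shares can follow depth. In lung replicate 6, 450 cells without an excluded gene held exactly 1 of the 5 T cell genes, beside 172 T cells.

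The label was checked with 15 T cell genes that the rule did not use, among them the kinases Lck and Zap70, the adaptors Lat and Skap1, the receptors Thy1, Cd5, Cd6 and Cd28, and the lineage factor Bcl11b. Their summed level in T cells was 5441, 5052 and 2813 CPM (counts per 1000000 UMIs of the summed cells) in unchallenged lung replicates 4, 5 and 6, and 3568 and 4879 in lung metastasis replicates 1-3 and 4. In NK cells of the same libraries the sum was 613 to 1565 and in B cells 141 to 387, so the T cells were highest in all 5 libraries. The NK and B cells were required to hold none of the 5 T cell genes, so the choice of cells favored this order. Trbc1, a near-identical copy of Trbc2, is among the 15 genes and is not independent of the rule. All 15 genes were detected in the T cells of each library. Lung replicate 6 was lowest, and its T cells were also the shallowest, with a median of 1715 UMIs per cell against 4652, 4257, 1839 and 3549.5 in lung replicates 4 and 5 and metastasis replicates 1-3 and 4. At the border of the rule, cells with exactly 2 of the 5 genes had a sum of these 15 genes of 2887, 3870 and 1963 CPM in lung replicates 4, 5 and 6 and 2071 and 4439 in metastasis replicates 1-3 and 4. Cells with exactly 1 gene, which were left out, had 1161, 225, 978, 741 and 2270 in the same order. In each library the left-out cells were lower, but those of metastasis replicate 4 lay above the cells with exactly 2 genes of lung replicate 6 and metastasis replicate 1-3. Over all libraries 192 T cells had exactly 2 of the genes and 729 cells had 1.

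The excluded genes removed many receptor-positive cells. Of 1951 cells with at least 2 of the T cell genes, 1368 (70.1%) held an excluded gene, most often S100a8 (818 cells) or Pecam1 (555 cells). Which of the removed cells were T cells was not tested, and T cells that transcribe an excluded gene such as Pecam1 would be lost. In unchallenged lung replicate 6 the rule removed 918 of 1090 such cells, 772 of them with S100a8. Transcripts of other lung cells were present in the T cells that remained. The club cell genes Scgb1a1, Scgb3a1, Scgb3a2 and Bpifa1 summed to 12056 CPM in T cells of lung replicate 6 and 2732 in replicate 5, against 15.0 in replicate 4, 184 in metastasis replicate 1-3 and 236 in metastasis replicate 4. A list of 8 macrophage genes summed to 2466, 427 and 7730 CPM in T cells of lung replicates 4, 5 and 6 and to 2120 and 1803 in metastasis replicates 1-3 and 4. The genes of AT-2 cells, the surfactant-making cells of the alveoli, summed to 14.2, 1009, 1431, 122 and 9.36 CPM in the same order. A list of 8 melanoma genes went the other way, at 530 and 737 CPM in the metastasis T cells and 7.08, 14.6 and 107 in lung replicates 4, 5 and 6. The melanoma genes were also present in other metastasis cells, at 489 and 597 CPM in NK cells, 740 and 728 in B cells and 1368 and 1463 in cells without any of the T cell genes, and club cell genes reached 32633 CPM in NK cells of lung replicate 6.

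Receptor genes were detected as follows. Among the 583 T cells, Trbc2 was found in 458, Cd3e in 415, Cd3g in 410, Cd3d in 405 and Trac in 370. Trbc1, the other constant segment of the beta chain and not part of the rule, was found in 233 cells, and 190 of these also held Trbc2. The constant regions of Trbc1 and Trbc2 are near-identical copies, so how reads were split between them is uncertain. Variable segments were seldom read by this chemistry, which captures the end far from them: 62 cells held a Trbv UMI and 68 a Trav UMI.

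Cd4 without Cd8a was found in 118 T cells, Cd8a without Cd4 in 144, both in 1 cell and neither in 320. Cells with neither gene were shallow, with a median of 1888 UMIs against 4770.5 for Cd4+ and 4508.5 for Cd8a+ cells. Neither gene was found in 170 of 218 T cells (78.0%) with under 2000 UMIs, in 102 of 200 (51.0%) with 2000 to under 5000 and in 48 of 165 (29.1%) with 5000 or more. Cd8b1, the partner chain of Cd8a, was found in 120 of 144 Cd8a+ cells and in 4 of 118 Cd4+ cells. A further 35 of the 320 cells with neither gene held Cd8b1. Of the genes of gamma delta T cells, which carry another receptor, the constant segment Trdc was found in 15 cells. Of these, 10 also held a gamma chain gene, 6 a delta variable segment, 1 Cd4 and 0 Cd8a. The Trdc+ cells were deep, with a median of 6903 UMIs, and 12 of them held Trbc2. NK cells held Trdc too, in 21.5, 13.9 and 2.38% of cells in unchallenged lung replicates 4, 5 and 6 and 0 and 15.6% in metastasis replicates 1-3 and 4, against 2.5, 2.44, 1.16, 0 and 5.10% of T cells. Thinned to 1000 UMIs the NK shares were 6.09, 2.63, 0.538, 0 and 3.13% and the T cell shares 2.14, 0, 1.27, 0 and 4.17%.

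The balance of Cd8a+ to Cd4+ T cells varied between libraries. Cd8a+ cells outnumbered Cd4+ cells by 96 to 42 in unchallenged lung replicate 4 (69.6% Cd8a+, 95% exact interval 61.2 to 77.1%) and by 22 to 9 in replicate 6 (71.0%, 52.0 to 85.8%). In replicate 5 the order was the opposite, with 6 Cd8a+ and 13 Cd4+ cells (31.6%, 12.6 to 56.6%). In lung metastasis replicate 1-3 there were 8 Cd8a+ and 5 Cd4+ cells (61.5%, 31.6 to 86.1%), and in replicate 4 there were 11 Cd8a+ and 45 Cd4+ cells (19.6%, 10.2 to 32.4%). These are counts without thinning. After 1 random thinning of each cell to 1000 UMIs, Cd8a was found in 4 of 41 T cells of lung replicate 5 and Cd4 in 1. Before thinning, Cd8a had 32 UMIs in 6 cells of that library and Cd4 had 25 UMIs in 13 cells. Thinning thus removes Cd4 more readily, and the thinned order of the 2 genes does not give the order of cell numbers. With that limit, Cd8a was found more often than Cd4 after thinning in all 3 lung libraries and in metastasis replicate 1-3. Within run 2 the balance was 96 to 42 in unchallenged lung and 11 to 45 in metastasis, with intervals that did not overlap, but each is 1 library and the intervals cover counting error only.

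To compare libraries of unlike depth, each T cell was thinned to 1000 UMIs and shallower cells were left out (6, 0 and 15 cells in unchallenged lung replicates 4, 5 and 6, and 0 and 2 in metastasis replicates 1-3 and 4). Cd4 was then found in 8.55, 2.44 and 3.18% of T cells in unchallenged lung replicates 4, 5 and 6, and in 4.76 and 16.7% in metastasis replicates 1-3 and 4. Without thinning these shares were 17.9, 31.7, 5.23, 23.8 and 45.9% in the same order. The thinned means, 10.7% ± 8.42 (SD, n = 2) in metastasis and 4.72% ± 3.33 (SD, n = 3) in lung, differed by 5.99 points, which was within the spread (exact permutation test, p = 0.3, adjusted 0.6). This design cannot give a p below 0.1. Without metastasis replicate 4 the difference was 0.0383 points, and without replicate 1-3 it was 11.9. Within run 2 the share was 16.7% in metastasis and 8.55% in unchallenged lung.

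Cd8a was found after thinning in 19.2, 9.76 and 6.37% of the lung T cells and in 28.6 and 3.13% of the metastasis T cells, so the metastasis libraries were the highest and the lowest of all. The means of 15.8% ± 18.0 (SD, n = 2) and 11.8% ± 6.67 (SD, n = 3) differed by 4.06 points (exact permutation test, p = 0.7, adjusted 0.7). Without metastasis replicate 1-3 the difference was -8.66 points, the opposite direction, and without replicate 4 it was 16.8 points. Within run 2 the share was 3.13% in metastasis and 19.2% in unchallenged lung. Unthinned, Cd8a was in 40.4, 14.6, 12.8, 38.1 and 11.2% of T cells. In NK cells thinned in the same way Cd4 was in at most 1.02% and Cd8a in at most 1.08%, and in B cells both were at 0 in every library.

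Foxp3 was found after thinning in 6 of 234, 1 of 41 and 0 of 157 lung T cells, the last of which allows up to 1.91%. In the metastasis libraries it was found in 1 of 21 and 2 of 96. The means of 3.42% ± 1.89 (SD, n = 2) and 1.67% ± 1.45 (SD, n = 3) differed by 1.75 points (exact permutation test, p = 0.6, adjusted 0.7). Without metastasis replicate 1-3 the difference was 0.416 points, and without replicate 4 it was 3.09. Without thinning Foxp3 was found in 4.58, 4.88 and 0.581% of T cells in lung replicates 4, 5 and 6 and in 9.52 and 7.14% in metastasis replicates 1-3 and 4, a difference of 4.99 points with no overlap between the tissues (exact permutation test, p = 0.1, the smallest this design allows). Within run 2 the thinned shares were 2.08% in metastasis (2 cells) and 2.56% in unchallenged lung (6 cells), and the unthinned shares were in the other order, at 7.14% (7 of 98) and 4.58% (11 of 240). Foxp3 was at 0 in NK and B cells of all 5 libraries.

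**Figure D2:**
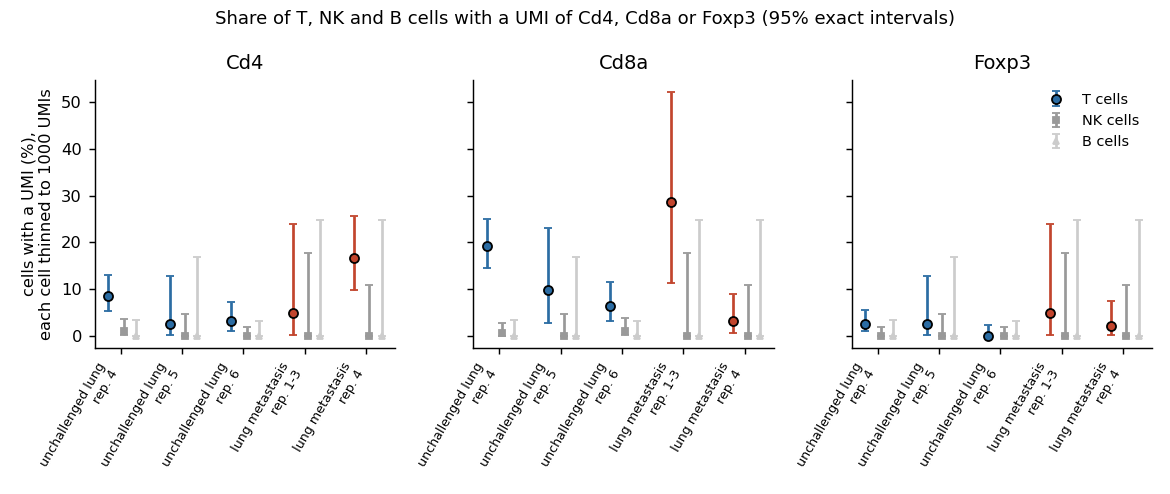
Points give the percentage of T cells (colored circles), NK cells (squares) and B cells (triangles) with a UMI of Cd4, Cd8a or Foxp3 after thinning each cell to 1000 UMIs, and bars the 95% exact interval, for the 5 libraries with at least 10 T cells. The lung metastasis libraries lie on both sides of the unchallenged lung libraries for Cd8a (28.6 and 3.13%).

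Cd8a+ and Cd4+ T cells were then compared within libraries, which asks how far the 2 kinds differ in the same animal. UMIs were summed for each kind in the 2 libraries with at least 10 cells of both, unchallenged lung replicate 4 and lung metastasis replicate 4. Of 3996 genes tested, 4 were higher in Cd8a+ cells at an adjusted p under 0.05 and 0 were lower (0.1% called), while 302 genes (7.56%) had an unadjusted p under 0.05 (edgeR quasi-likelihood with the library as a block). The fit had 1 residual degree of freedom. The 4 genes were Ccl5, Gzma, Cd8b1 and Nkg7. By design Cd8a and Cd4 themselves separated the sums and are not read as results. Neither was called (adjusted p = 0.057 and 0.0811).

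Ccl5, a chemokine released by cytotoxic cells (chromosome 11, 83525778 to 83530518, GRCm38), stood at 25608 CPM in Cd8a+ and 4125 in Cd4+ cells of lung replicate 4, and at 19285 and 4039 in metastasis replicate 4. The difference was 2.49 on the log2 scale (SE 0.11, adjusted p = 0.0113). In the smaller libraries it was also higher in Cd8a+ cells, at 9949 against 2272 in lung replicate 5, 1003 against 277 in lung replicate 6 and 17321 against 7517 in metastasis replicate 1-3. Nkg7, a granule membrane protein of killer cells (chromosome 7, 43437073 to 43438249), was at 2661 against 844 and 1753 against 486 in the tested libraries, a log2 difference of 1.78 (SE 0.14, adjusted p = 0.0477). In lung replicate 6 it stood at 340 against 323.

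Gzma, the granzyme A gene (chromosome 13, 113093825 to 113100981), was at 3403 against 60.6 in lung replicate 4 and 754 against 36.3 in metastasis replicate 4, a log2 difference of 5.40 (SE 0.33, adjusted p = 0.0198). Lung replicate 5 went the other way, with 11 UMIs (275 CPM) in Cd8a+ and 94 (984 CPM) in Cd4+ cells. In a fit of all 5 libraries with at least 5 cells of both kinds, Gzma no longer passed (log2 difference 2.83, adjusted p = 0.107). Cd8b1 (chromosome 6, 71322788 to 71337494), which lies beside Cd8a, was at 1580 against 4.33 and 819 against 13.6, a log2 difference of 7.04 (SE 0.44, adjusted p = 0.0198), and was at 0 in the Cd4+ cells of the other 3 libraries.

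The fit of 5 libraries tested 1490 genes. It called 16 higher and 14 lower in Cd8a+ cells, which counts Cd8a and Cd4, the genes that chose the cells. It held Ccl5 (log2 difference 2.10), Nkg7 (1.52) and Cd8b1 (7.11) as called, so 3 of the 4 genes passed in both fits. With Cd8+ cells taken by Cd8a or Cd8b1, 58 genes were higher and 51 lower.

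Of the 20 genes of the cytotoxic and effector list, 17 passed the filter on low counts, and 3 of these (Gzma, Nkg7 and Ccl5) were called higher and 0 lower. Both Cd8a+ sums lay above both Cd4+ sums in 14 of the 17 and below in 0, and over all genes tested above in 14.6% and below in 19%. Some of the 17, such as Eomes, passed the filter through their UMIs in Cd8a+ cells alone and could only lie above. The count of 14 was thus partly set by the filter and is not read as a result. Prf1, the pore-forming perforin, had 155 and 9 UMIs in Cd8a+ cells and 1 and 1 in Cd4+ cells, a ratio of 66.1 (95% exact counting interval 18.0 to 551), and was not called (adjusted p = 0.0579). In lung replicate 5 it had 1 UMI in Cd8a+ and 5 in Cd4+ cells. Gzmk, another granzyme, was at 193 against 8.66 CPM in lung replicate 4 and 229 against 22.7 in metastasis replicate 4, with an adjusted p of 0.151. Eomes, a transcription factor of effector and memory CD8 T cells, had 38 and 14 UMIs in Cd8a+ cells and 0 in the Cd4+ cells of all 5 libraries, which makes it at least 14.0-fold higher in the 2 tested libraries (against 3 UMIs over the group; adjusted p = 0.24). Chsy1, a chondroitin synthase, was at 160 against 17.3 and 180 against 18.2 (adjusted p = 0.189). Klrd1 and Klrk1, killer lectin receptor genes shared with NK cells, were higher in Cd8a+ cells in 5 of 5 libraries each. Gzmb was higher in Cd8a+ cells in 4 libraries and at 0 in both kinds in lung replicate 6, and Ifng was higher in 2 and lower in 3. The fit of 5 libraries called Gzmk (adjusted p = 0.00304), Gzmb (0.0104) and Chsy1 (0.0238) as higher in Cd8a+ cells. It also called Eomes (0.00542), but Eomes passed the filter through Cd8a+ cells alone. Neither its fold bound nor its call is thus read as a result.

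No regulatory or helper gene was called in the 2 libraries. Foxp3 had 17 and 13 UMIs in the Cd4+ sums of the tested libraries and 0 in Cd8a+ cells of all 5 libraries, at least 12.4-fold higher (adjusted p = 0.339). Foxp3 passed the filter through Cd4+ cells alone and could only lie higher in them, so this bound is not read as a result. Ctla4, an inhibitory receptor of regulatory cells, had 12 and 14 UMIs in Cd4+ and 1 and 0 in Cd8a+ cells. Of the 13 regulatory genes, 7 passed the filter and 0 were called. Some passed through their UMIs in Cd4+ cells alone, so no median is given. Icos, a costimulatory receptor, was at 152 against 48.1 and 182 against 49.2 CPM (log2 difference -1.66, adjusted p = 0.339). Gata3, a transcription factor of type 2 helper cells, was at 216 against 68.2 and 118 against 16.4 (-1.75, adjusted p = 0.339), and was higher in Cd4+ cells in 5 of 5 libraries, as were Rora, Icos and Maf. In the fit of 5 libraries Tnfrsf4 and Gata3 (adjusted p = 0.00313 each), Ctla4 (adjusted p = 0.0107) and Icos (adjusted p = 0.0373) were called lower in Cd8a+ cells, and Rora was not (adjusted p = 0.125). Ctla4 passed the filter mainly through its UMIs in Cd4+ cells, so the direction of its call is not read as a result.

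Of the naive and recirculating list, Il7r, the survival receptor of resting T cells, was at 693 against 231 and 844 against 393 in Cd4+ and Cd8a+ cells (log2 difference -1.36, adjusted p = 0.319). Tcf7, a transcription factor of naive and memory cells, was at 394 against 168 and 481 against 147 (-1.33, adjusted p = 0.339). Both were higher in Cd4+ cells in 4 of 5 libraries. Lef1, Klf2, S1pr1 and Ccr7 had log2 differences of -0.63, 0.15, -0.33 and -1.87 with adjusted p from 0.659 to 0.929. Of 12 listed genes 10 passed the filter, 0 were called, and the median was -0.44. In the fit of 5 libraries the differences were -0.86 for Il7r, -0.67 for Tcf7, -0.19 for Lef1, 0.23 for Klf2 and -0.08 for S1pr1, none called.

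The other lists gave 0 called genes each, and medians cover the members that passed the filter, which a gene high in 1 kind alone could pass. Of the 20 antigen receptor signaling genes, all of which passed the filter, the median was -0.03. The 16 early response and heat shock genes had a median of -0.53, and 10 of them had both Cd4+ sums above both Cd8a+ sums in the 2 tested libraries, as did 19% of all genes tested. Of these 10, Btg2 was higher in Cd4+ cells in 4 of 5 libraries, but Dusp1 was higher in Cd8a+ cells in 3 of 5. For tissue residency, TNF superfamily, interferon response, chemokine receptor, cell cycle, helper type and inhibitory receptor genes the medians were -0.44, -0.91, -0.21, 0.000775, 0.32, -0.38 and 0.21. Among them Cd69, an early activation and residency marker, differed by -0.65, Cxcr6, a chemokine receptor of lung-resident T cells, by 0.42, Tox by -0.57 and the proliferation gene Mki67 by 0.45, with adjusted p from 0.732 to 0.925. Pdcd1, Lag3, Tigit, Havcr2, Itgae, Il1rl1, Il17a, Trdc, Tcrg-C1, Il2ra, Tnfrsf4 and Gzmb did not pass the filter. Ikzf2 was at 450 against 10.0 and 290 against 115 in Cd4+ and Cd8a+ cells (adjusted p = 0.39), but in lung replicate 5 at 660 against 700, while Tnfrsf18 overlapped between the kinds.

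**Figure D3:**
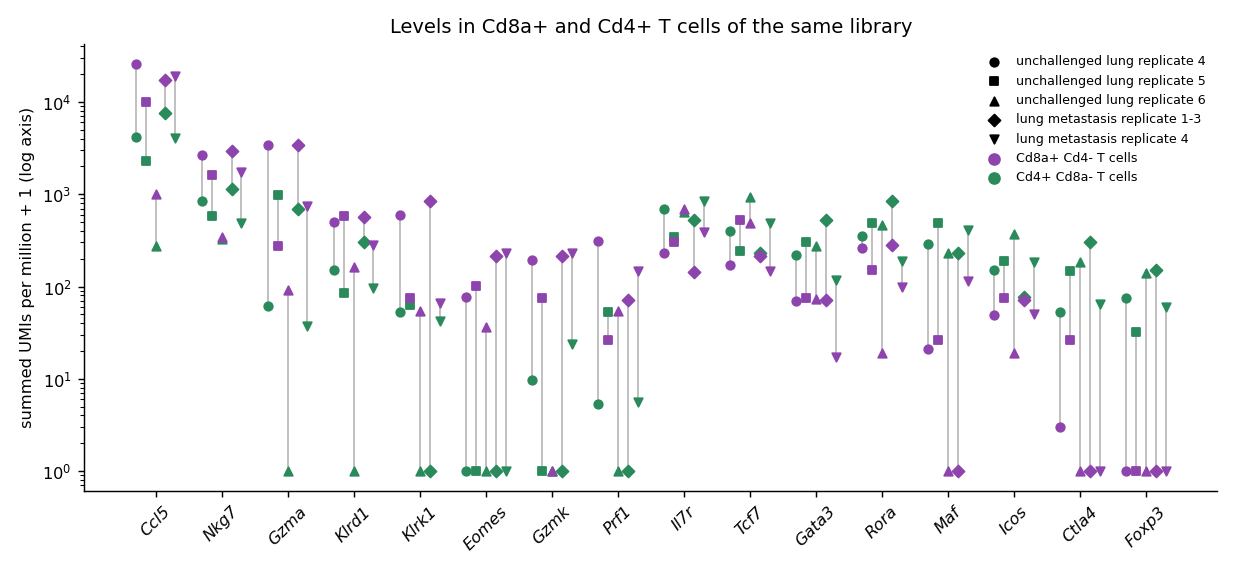
Each marker gives the summed level, in CPM plus 1 on a log axis, of Cd8a+ Cd4- (purple) or Cd4+ Cd8a- (green) T cells in 1 of 5 libraries, joined by a line within a library. Ccl5 and Nkg7 were higher in Cd8a+ cells in 5 of 5 libraries, Gzma in 4, and Foxp3, Gata3 and Icos were higher in Cd4+ cells in 5.

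The 26 Foxp3+ T cells were 11, 2 and 1 cells of unchallenged lung replicates 4, 5 and 6, 2, 7 and 2 cells of metastasis replicates 1-3, 4 and 6, and 1 cell of primary tumor replicate 4. Cd4 was found in 17 of them, Cd8a in 0 and neither in 9. They were set beside the 102 Cd4+ T cells with no Foxp3 UMI, with all libraries summed and no test, since the cells are not replicates. The intervals are exact Poisson intervals for counting error only. The median depth was 5177 UMIs in Foxp3+ and 4710 in the other Cd4+ cells.

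Of 12 further regulatory genes, 11 were higher in Foxp3+ cells, 9 of them with intervals that did not overlap, and Il10 had no UMI in either. Of the 12961 genes with a UMI in either set, 41% were higher in Foxp3+ cells and 1.53% were so with intervals apart. Ikzf2, which encodes the factor Helios, was found in 25 of 26 Foxp3+ cells and in 22 of 102 others, at 1789 (1580 to 2017) against 120 (91.6 to 155) CPM. Ctla4 was at 323 (238 to 428) against 22.4 (11.2 to 40.1), and Tnfrsf4, the costimulatory receptor OX40, at 363 (273 to 474) against 26.5 (14.1 to 45.3). Tnfrsf18, encoding GITR, was at 450 (349 to 572) against 59.1 (39.6 to 84.9). Il2ra, the high-affinity interleukin-2 receptor chain, was at 121 (71.7 to 191) against 16.3 (7.04 to 32.1).

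Genes outside that list also differed. Il1rl1, the receptor for interleukin-33 found on regulatory cells of tissues, was found in 14 of 26 Foxp3+ cells and 2 of 102 others, at 235 (164 to 327) against 4.08 (0.494 to 14.7). Itgae, the alpha E integrin, was found in 8 and 2 cells. Icos was at 370 (279 to 481) against 120 (91.6 to 155). Lower in Foxp3+ cells were Tcf7 at 108 (61.5 to 175) against 471 (412 to 536), Ccl5 at 182 (120 to 264) against 4556 (4369 to 4749), Cxcr6 at 26.9 (7.33 to 68.9) against 181 (146 to 223), and Cd40lg, the ligand through which helper cells act on B cells, with 1 UMI against 51. Il7r was at 767 (632 to 921) against 683 (612 to 760), with intervals that overlapped. In the 2 libraries with most Foxp3+ cells the order held for Ikzf2 (1937 against 133 in lung replicate 4, 1235 against 117 in metastasis replicate 4), Ctla4 (192 against 30.6 and 337 against 10.6) and Il1rl1 (266 against 5.1 and 112 against 5.32).

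**Figure D4:**
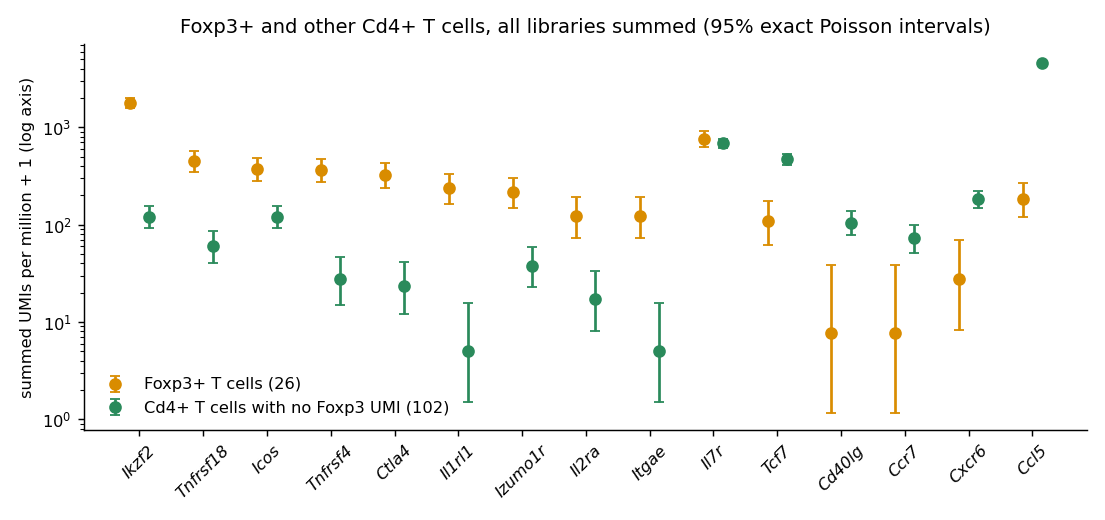
Points give summed levels in CPM plus 1 (log axis) of the 26 Foxp3+ T cells (orange) and of 102 Cd4+ T cells with no Foxp3 UMI (green), and bars the 95% exact Poisson interval. Ikzf2 (1789 against 120) and Il1rl1 (235 against 4.08) lie higher in Foxp3+ cells, and Ccl5 (182 against 4556) lower.

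The comparison of lung metastasis with unchallenged lung asks whether T cells of the metastatic lung differ from those of a tumor-free lung. It used the T cell sums of metastasis replicates 1-3 and 4 and of lung replicates 4, 5 and 6, of 49045, 427523, 1129837, 206060 and 363375 UMIs. In such sums a change in the makeup of the T cells and a change of level within a kind cannot be told apart. Of 6107 genes tested, 1 was called (0.0164%), and 113 (1.85%) had an unadjusted p under 0.05 (edgeR quasi-likelihood). That gene was Dct, a pigment synthesis enzyme of melanocytes and melanoma cells (chromosome 14, 118012790 to 118052244). It had 16 and 207 UMIs in the metastasis T cells, found in 10 of 21 and 71 of 98 cells, and 0, 0 and 2 UMIs in lung. The ratio was 398 (exact counting interval 109 to 3303), with an adjusted p of 0.00808. The melanoma list as a whole was higher in metastasis T cells, as given above, and the part of tumor cell RNA in this result was not tested. Leaving out either metastasis library left Dct uncalled (0 genes called).

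Genes next in p that did not overlap between tissues were not called (adjusted p = 1.0 each, rounded). Ptgds and Syt4, the latter on the melanoma list, had 34 and 27 UMIs in the metastasis sums and 0 in lung, at least 40.4-fold and 32.1-fold higher against 3 UMIs over the group. Tppp3, a ciliated cell gene, had 0 and 1 UMIs in metastasis and 38, 31 and 155 in lung replicates 4, 5 and 6 (33.6, 150 and 427 CPM), and Cldn5, an endothelial gene, had 0 UMIs in metastasis and 56 in lung, at least 5.24-fold lower in metastasis. The ciliated list as a whole summed to 0 and 2.34 CPM in metastasis T cells and to 36.3, 592 and 1343 in lung. Hpgd, a prostaglandin-degrading enzyme, was at 0 and 16.4 CPM in metastasis and 39.8, 77.6 and 127 in lung, and Anxa1 and Anapc5 had log2 differences of -1.89 and -1.26. Izumo1r, the folate receptor 4 of regulatory cells, was at 102 and 60.8 against 23.0, 14.6 and 16.5 (log2 difference 1.80, SE 0.52). These levels rest on few UMIs, 5 and 26 in metastasis and 26, 3 and 6 in lung.

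No T cell gene of the lists passed the test in either direction. Cd4 was at 184 and 161 CPM in metastasis and 79.7, 121 and 30.3 in lung T cells (log2 difference 1.06, SE 0.50), without overlap, as in 11.4% of all genes tested in that direction. Foxp3 was at 81.6 and 32.7 against 31.0, 14.6 and 8.26 (1.08, SE 0.77), also without overlap. Its UMIs were few, 4 and 14 in metastasis and 35, 3 and 3 in lung. Ctla4 was at 143 and 42.1 against 22.1, 72.8 and 13.8 (1.02, SE 0.79), with overlap. The regulatory list had a median of 0.32 over the 9 of 13 genes that passed the filter, against -0.04 over all genes tested.

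The cytotoxic genes overlapped between the tissues. Ccl5 was at 12417 and 6425 CPM in metastasis and at 13436, 4596 and 454 in lung. Gzma was at 1794 and 250 against 1614, 718 and 311, and Gzmb at 163 and 18.7 against 181, 29.1 and 11.01. Metastasis replicate 1-3 and lung replicate 4 were thus the highest for all 3 genes. They were also the highest for the list of NK cell genes, which holds Gzma. Its sum in T cells was 2508 and 435 CPM in metastasis and 2030, 961 and 476 in lung. The part of NK cell RNA in these levels was not tested. Nkg7 was at 1509 and 660 against 1529, 874 and 195, and Cd8b1 at 489 and 133 against 728, 112 and 116. In 18 of the 20 genes that passed the filter the median was -0.11, and 0 genes were apart between the tissues, against 18.4% of all genes tested.

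Of the genes of resting T cells, Il7r was at 265 and 851 against 636, 364 and 517, Tcf7 at 204 and 398 against 241, 286 and 366, Klf2, a factor of recirculating cells, at 856 and 868 against 1050, 505 and 517, and S1pr1, the receptor for exit from tissues, at 306 and 215 against 158, 214 and 127, of which S1pr1 alone did not overlap. The list had a median of 0.15 over 10 genes. Cd69 was at 326 and 306 against 360, 243 and 154. Itgae, Pdcd1, Lag3, Tigit and Havcr2 were too low for the test, with a UMI in 29, 29, 14, 2 and 22 of the 583 T cells, and Il17a had none. Tox was at 224 and 72.5 against 79.7, 92.2 and 52.3.

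The remaining lists had 0 calls and medians of -0.29 (interferon response), -0.15 (tissue residency), -0.27 (inhibitory receptors), -0.31 (helper types), -0.35 (cell cycle), 0.40 (TNF superfamily), 0.03 (early response), -0.00156 (chemokine receptors), -0.23 (gamma delta) and 0.02 (antigen receptor signaling). Of the 18 interferon response genes tested, 3 were lower in metastasis without overlap, against 6.93% of all genes tested. Mki67 was highest in lung replicate 5, at 150 CPM against 20.4 to 65.5 in the other 4 libraries.

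**Figure D5:**
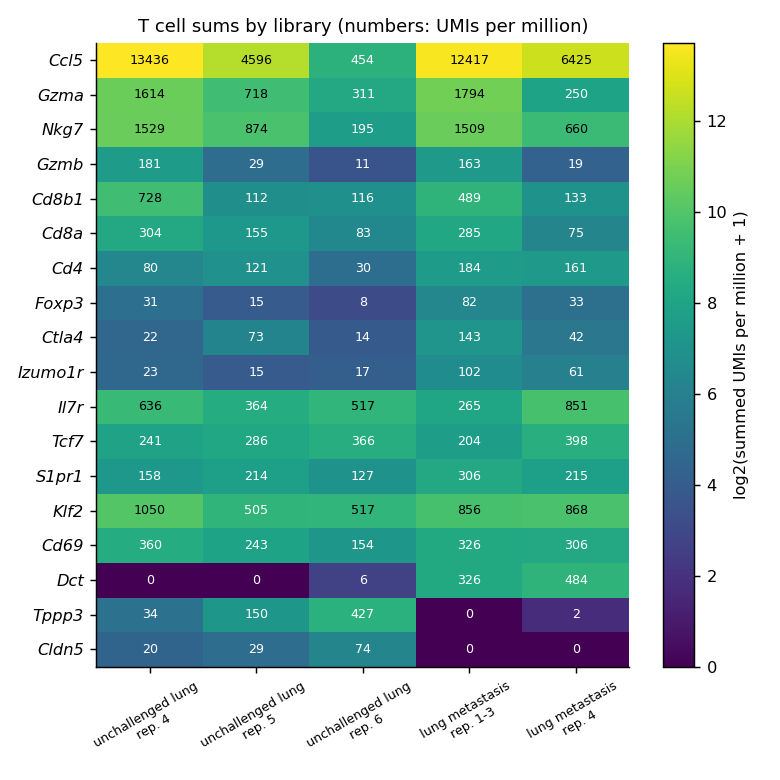
Rows are genes and columns the 5 libraries with at least 10 T cells, color gives log2 of the summed CPM plus 1, and numbers the CPM. Ccl5, Gzma, Nkg7, Gzmb and Cd8b1 were highest in unchallenged lung replicate 4 and lung metastasis replicate 1-3, and Dct was at 326 and 484 in the metastasis columns and at most 5.5 in lung.

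T cells differed from NK and B cells beyond the genes that chose them, which is given without a test. Means are over the unchallenged lung libraries with at least 10 cells of a class, 3 for T and NK cells and 4 for B cells. Il7r was at 506 CPM in T cells, 19.3 in NK and 26.5 in B cells, Tcf7 at 298, 41.1 and 10.2, and Cxcr6 at 176, 2.62 and 1.02. Ccl5 and Nkg7 were shared with NK cells, at 6162 and 866 in T cells and 8180 and 2219 in NK cells, and Gzma was lower in T cells, at 881 against 8648.

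The 4 primary tumor T cells allow no comparison. In replicate 4, 1 of the 2 cells held Foxp3 and the other Trdc, and the 4 cells together gave 28 Trdc UMIs, 82 of Ccl5, 15 of Tnfrsf9 and 11 of Tnfrsf18.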

How the data were processed

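The authors deposited UMI counts per gene and cell, made with Cell Ranger 6.1.1 on GRCm38 and quality-filtered in Seurat 3.2.2 on quantiles of detected genes and of mitochondrial and ribosomal share. The deposited metadata gave the library, run and mouse of a cell and the percent of mitochondrial UMIs. The normalized matrix was not used. Of 19 library names, 4 TME libraries held the same cells as another and were counted once, which left 15 names, and the names of replicates 1 to 3 were pooled per tumor tissue as the labels do, which left 12 libraries. At most 48 barcodes were shared between any 2 of them. No doublet caller was run, the 7 excluded genes cover only some mixed cells, and the sources used here do not state whether doublets were removed before deposit. UMIs were summed per library (libraries with at least 10 cells) and tested with edgeR 4.0.16 (filterByExpr, TMM, quasi-likelihood, Benjamini-Hochberg adjusted p under 0.05). DESeq2 1.42.0, other scalings, filters and rules were alternatives. SE of a log2 difference came from the F statistic. Of 12 comparisons of shares set, the 4 of metastasis with unchallenged lung had enough cells. Shares were tested by exact permutation over libraries, which differ in mouse. Primary tumors had under 10 T cells per library and were not tested. On simulated counts with 200 changed genes, the tissue fit on 6107 genes found 29% of 4-fold, 75% of 8-fold and 85.5% of 16-fold changes, with 2, 16 and 1 false calls, and the Cd8a+ fit on 3996 genes 78.5, 88.5 and 89%, with 3, 7 and 0. The simulation gave every gene the same spread and libraries that differed only in depth, so these shares may not hold for the real fits. In the real Cd8a+ fit Cd8a itself, with a log2 difference of 10.3, was not called. Genes named were the 10 called or lowest in p with at least 20 CPM and no overlap between groups, and a set list of T cell genes, some of which are not reported here. The genes of interest, lists and cell rule were chosen with earlier results of these data known. CPM of different genes were not compared per length, since the 3' chemistry counts 1 end of each mRNA. Intervals and floors cover counting error only. Znf683 had no row in the counts.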

Additional observations from a re-analysis of the deposited data

Results flagged for a closer look

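The share of T cells in unchallenged lung replicate 4, 5.88% of its cells, was far from the other 3 unchallenged lung libraries. Its gap to the next library was 0.919 of the whole range, past Dixon's 95% critical value for 4 samples. It was 1 of 4 groups examined in this way, and chance flags about 1 in 20. Lung replicate 4 was the only unchallenged lung library of run 2, and the labels do not say how it was sorted, so run, sort and animal cannot be told apart. The share also depends on the excluded genes, which removed 53.7% of cells with at least 2 T cell genes in replicate 4 and 84.2% in replicate 6. Before that step such cells numbered 5 of 1326, 518 of 4085, 100 of 6009 and 1090 of 25966 in replicates 1, 4, 5 and 6. The flag was not tested on those counts.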

How the results depend on the processing

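For lung metastasis against unchallenged lung, 1 gene was called, and Dct was among the calls of all settings except those without metastasis replicate 1-3 or replicate 4, which called 0 genes (86 and 371 at an unadjusted p under 0.05) and left 1 metastasis sum, assumed to vary like the lung sums. Without a filter on low counts 66 genes were called, and leaving out 1 library gave 0 to 15. The 15 were found without lung replicate 4, with 1 higher and 14 lower in metastasis. They were Dct and, among others, Scgb1a1, Scgb3a2, Sec14l3, Tppp3, Sftpb, Sftpc and Slc34a2 of the club, ciliated and AT-2 lists. The 9 found without lung replicate 6 were Dct, Syt4 and Cd63 of the melanoma list, and Apoe, Fn1, Gpnmb, Nf1, Ptgds and Tppp3. For Cd8a+ against Cd4+ cells, 4 genes were called. The number was 11 with relative log expression scaling, 96 with no filter, 19 without the library block, 30 with at least 5 cells of both kinds, 109 with Cd8b1 added to the rule and 18 in unchallenged lung only. The last was added after seeing the data, as was leaving out each library of the fit with at least 5 cells, which gave 13, 27, 36, 29 and 21 (without lung replicates 4, 5 and 6 and metastasis replicates 1-3 and 4). Ccl5 and Nkg7 were called in all of these. Cd8b1 was too, but with Cd8b1 added to the rule its call was fixed by the choice of cells. Cd8a and Cd4, which chose the cells, are counted in the 11, 19, 30 and 18. They are also counted in each number given for that fit with a library left out. DESeq2 called 1 and 5 genes. The Cd8a+ share difference was reversed to -8.66 points without metastasis replicate 1-3 and was 16.8 without replicate 4. Within run 2 alone, added after seeing the data, the Cd8a+ and Foxp3+ share differences were reversed, at -16.1 and -0.481 points, the latter on 2 and 6 thinned cells. Without thinning the Foxp3+ share in run 2 was 7.14% in metastasis and 4.58% in lung. Fits with only replicates 5 and 6 or with 20 cells of both kinds were not run, since too few libraries were left. No paired analysis was possible, because the unchallenged lungs and the metastases came from different mice. The libraries tested for genes and for Cd4+, Cd8a+ and Foxp3+ shares had only run 2 in common between the tissues. A gene fit within run 2 alone would leave no residual degree of freedom. With the run as a block, added after seeing the data, 1 residual degree of freedom was left, the tissue difference rested on run 2, and 1 gene was called, Dct (adjusted p = 0.00462). For the lymphocyte share, which has 2 runs with both tissues, the within-run value is 21.4 points. Depth limits the low genes: 3 UMIs stand for 61.2 CPM in metastasis replicate 1-3.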
